A study of Mus musculus with 34 samples.

Results

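The lysosome is the acidic compartment in which a macrophage degrades what it has engulfed. Its genes encode hydrolases, membrane proteins and the V-ATPase, the proton pump that keeps the lumen acidic. Many of them carry in their promoters the E-box CACGTG, often within the longer palindrome TCACGTGA, and this element is bound by the basic helix-loop-helix zipper factors TFEB, TFE3, TFEC and MITF, of which TFEB is the best known activator of lysosome genes. USF1 and USF2 bind the same hexamer. AP-1 dimers recognise other sequences, the TRE (TGACTCA) and the CRE (TGACGTCA).

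Binding of AP-1 monomers and of 3 other factors was examined at 35 mouse genes chosen by name, which are 6 genes for E-box binding factors and 29 genes for lysosome proteins. All 35 symbols were found among 21911 protein-coding genes. A gene was counted as bound in a list when the midpoint of a peak lay within its body or within 5 kb on either side. A peak within 1 kb of a transcription start site (TSS) of the gene was called a promoter peak, and any other was called distal. The data were ChIP-seq peak lists of thioglycollate-elicited macrophages (TGEMs), primary macrophages flushed from the peritoneum of male mice of 8 weeks, 3 days after the injection. The strains were C57Bl/6EiJ and Balb/cJ as the labels spell them, written C57BL/6 and BALB/cJ here, and the genotypes were wild type and PPARgKO, a PPARγ knockout on C57BL/6 whose mode of deletion was not given in the sources used here. Cells were resting (Veh) or treated for 1 h with 100 ng/mL Kdo2 lipid A (KLA), an agonist of TLR4.

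The 34 samples gave 30 lists, 1 per condition, and 4 input samples had none. In C57BL/6, ATF3, Jun, JunD, Fos, FosL2, JunB, PU.1 and CEBPα were profiled in Veh and KLA, and PPARγ in Veh. In BALB/cJ the monomers were ATF3, Jun, JunD, Fos and JunB in both treatments, and in the knockout they were ATF3, Jun and JunD in Veh. In resting BALB/cJ cells the Fos list was empty and the JunB list had 9 peaks, none at the 35 genes. The other lists held 463 peaks (JunB in Veh, C57BL/6) or more, and the sum of peak counts per list ranged from 9196 to 13809143. Because the replicate experiments had been combined in each list, no difference between 2 lists has a replicate check and no p-value is given. Intervals are 95% Wilson intervals on a share of genes or peaks and cover counting error only. The knockout could not be checked, since no PPARγ list of the knockout is among the files. All 7 macrophage marker genes examined had a PU.1 peak in Veh, as had 0 of 3 T cell, 0 of 3 neutrophil, 2 of 3 B cell and 3 of 3 epithelial markers, so that the lists show binding and not which genes were expressed.

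A pair of sequence classes carried the results, and examples of each are given first, on the plus strand of mm10. The first were E-boxes in the central 200 bp of promoter loci, a locus being a run of overlapping peaks from any list. The capitals mark 1 E-box of each locus, and the Gla stretch holds another in lower case.
Cd63, a tetraspanin of late endosomes, chr10:128909706-128909735: ccaggcagcggcCACGTGgccttgtcctgg
Ctsa, a protective carboxypeptidase, chr2:164833749-164833778: tgagcaaactgtCACGTGatgcagatgctc
Ctsd, an aspartic protease, chr7:142387908-142387937: ccctcaacgggtCACGTGagacgcgggcga
Gaa, acid alpha-glucosidase, chr11:119268020-119268049: ccgcccacagacCACGTGacccacgctgcc
Lamp1, a lysosomal membrane glycoprotein, chr8:13159209-13159238: agaccctcggctCACGTGaccggcgggcgc
Atp6v0d1, a V-ATPase subunit, chr8:105566050-105566079: cgcaccgcgtctCACGTGaccgcagtaggg
Gla, alpha-galactosidase A, chrX:134601152-134601241: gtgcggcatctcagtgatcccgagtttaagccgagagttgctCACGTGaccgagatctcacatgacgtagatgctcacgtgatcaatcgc
Atp6v1h, another V-ATPase subunit, chr1:5083077-5083106: ctcagctgcggtCACGTGcggctgctcacg

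The second were TREs in distal loci that recurred in 25 or more lists. Those of Mitf, Ctsb and Ctsh lay in introns and that of Hexa lay upstream of the gene. The capitals mark the TRE.
Mitf, chr6:97818298-97818387: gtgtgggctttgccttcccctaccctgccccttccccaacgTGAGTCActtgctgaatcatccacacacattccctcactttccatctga
Ctsb, chr14:63130807-63130896: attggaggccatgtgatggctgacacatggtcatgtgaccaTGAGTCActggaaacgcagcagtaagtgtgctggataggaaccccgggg
Ctsh, chr9:90067585-90067674: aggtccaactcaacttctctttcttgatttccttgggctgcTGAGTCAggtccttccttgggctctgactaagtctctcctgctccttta
Hexa, chr9:59537854-59537943: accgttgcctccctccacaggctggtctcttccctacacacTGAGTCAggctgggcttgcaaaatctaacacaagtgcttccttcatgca

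In resting C57BL/6 TGEMs the monomers ATF3, Jun and JunD each had peaks at nearly all of the 35 genes. ATF3 had a peak at 34 genes (97.1%, interval 85.5 to 99.5), where 34.7% of all protein-coding genes had one. Jun had a peak at 30 genes (85.7%, 70.6 to 93.7) against 27.8% of coding genes. JunD had a peak at 30 genes too, against 33.6%. In each of these lists the share of coding genes lay below the interval of the lysosome genes and their regulators. Usf1 was the gene without an ATF3 peak, and Usf1 and Mcoln1, a calcium channel of the lysosomal membrane, were without a peak in both the Jun and the JunD list.

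The same held at promoters. ATF3 had a promoter peak at 26 genes (74.3%, 57.9 to 85.8), with 16.1% for coding genes. Jun had a promoter peak at 21 genes (60.0%, 43.6 to 74.4), with 11.4%, and JunD at 22 genes (62.9%, 46.3 to 76.8), with 17.3%. With the strongest 50% of each list alone, the promoter shares were 37.1% for ATF3 and 31.4% for Jun, where coding genes had 5.88% and 4.29%. All 7 non-cathepsin hydrolase genes (Lipa, Gaa, Gla, Glb1, Gusb, Hexa and Neu1) had an ATF3 promoter peak, 6 of the 7 had a Jun promoter peak and 4 had a JunD promoter peak. Of the 8 cathepsin genes, which encode the lysosomal proteases, 5 had a promoter peak of ATF3, 3 of Jun and 6 of JunD.

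FosL2, Fos and JunB had few peaks in resting cells. FosL2 had 5329 peaks and was found at 23 of the 35 genes (65.7%, 49.2 to 79.2) against 13.7% of coding genes, with a promoter peak at 14 (40.0%, 25.6 to 56.4) against 4.92%. Fos had peaks at 7 genes with 8.42% for coding genes, and JunB at 5 genes with 1.50%. The genes with a resting Fos peak were Tfeb, Hexa, Npc2, Npc1, Lipa, Neu1 and Psap, and those with a resting JunB peak were Mitf, Hexa, Npc2, Atp6v1a and Atp6v0d2.

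The macrophage factors differed from each other at these genes. PU.1, the lineage-determining ETS factor, had a peak at 33 genes against 53.6% of coding genes and a promoter peak at 27 against 29%. PPARγ, a nuclear receptor for lipid ligands, also had a peak at 33 genes (94.3%, 81.4 to 98.4) against 51.6%, and a promoter peak at 29 (82.9%, 67.3 to 91.9) against 35%. CEBPα, a bZIP factor of myeloid cells, had a peak at 26 genes (74.3%, 57.9 to 85.8) against 25.5%, and a promoter peak at only 9 (25.7%, 14.2 to 42.1) against 7.86%. Thus CEBPα was found mostly at distal sites, and PPARγ at the most promoters of the Veh lists of C57BL/6.

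**Figure D1:**
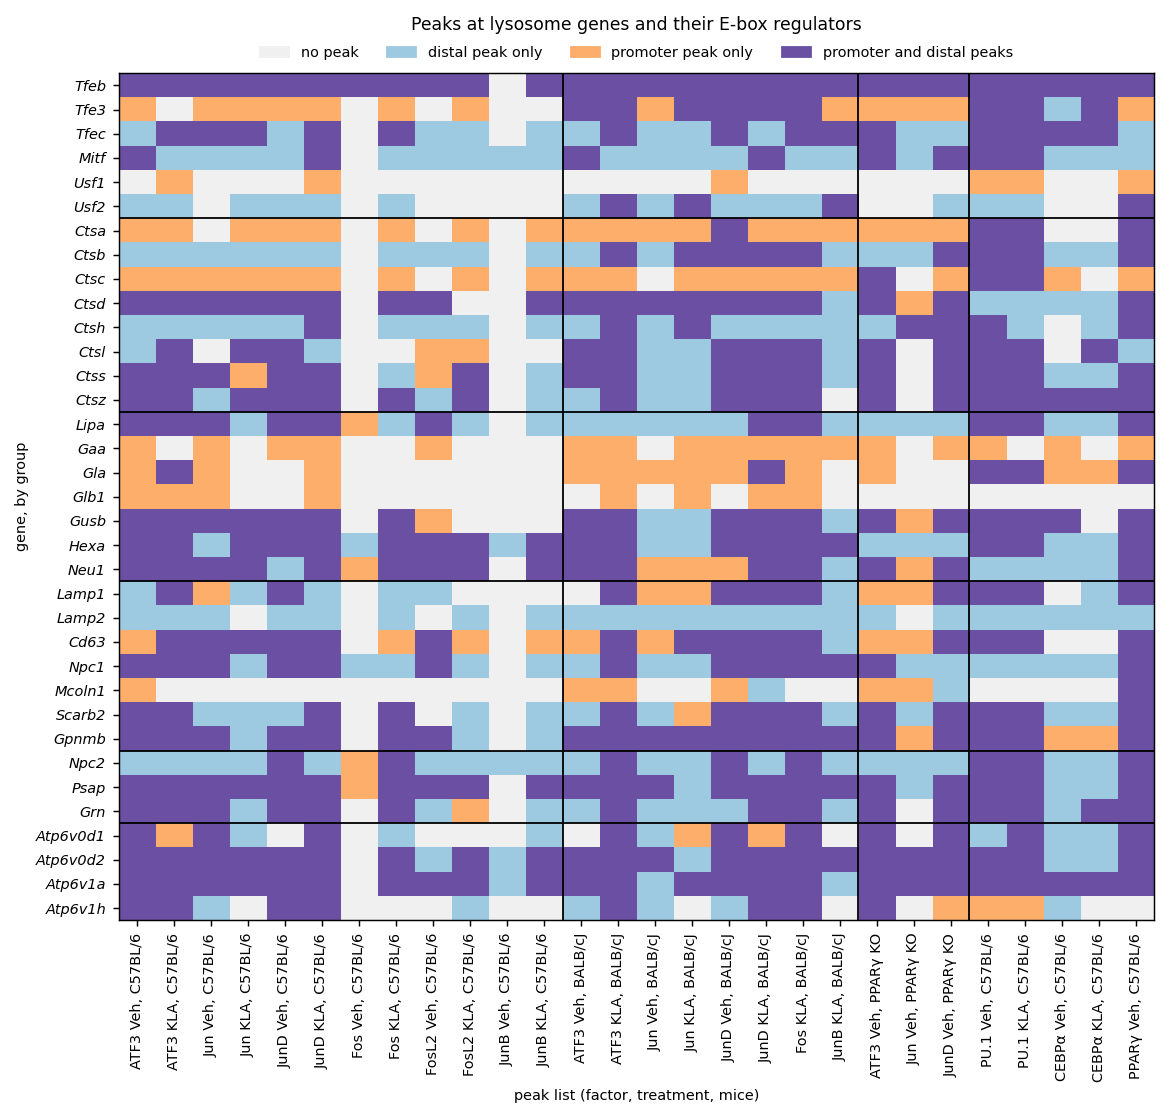
Peaks at each of the 35 genes (rows, by group) in the 28 lists with peaks at them (columns), coloured by whether the gene had a distal peak, a promoter peak, both or none (pale grey). The rows of Usf1, Glb1 and Mcoln1 are mostly grey, while those of Hexa and Npc2 have a peak in 28 lists.

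Comparison with all coding genes includes many genes that are inactive in macrophages, so the same shares were also taken over genes with a PU.1 peak. Of the 11739 coding genes with a PU.1 peak in Veh, 58.7% had an ATF3 peak, 48.1% a Jun peak, 57.8% a JunD peak and 43.2% a CEBPα peak, all below the intervals of the 35 genes. Of those genes 81.1% had a PPARγ peak, just below the lower bound of 81.4%. At promoters, among the 6347 genes with a PU.1 promoter peak, 38.8% had ATF3, 29.1% Jun and 43.1% JunD, again below the intervals. By contrast 74.7% had PPARγ and 19.0% had CEBPα at the promoter, and both values fell inside the intervals of the 35 genes. The PPARγ and CEBPα promoter shares of the 35 genes could therefore not be told apart from those of PU.1-bound promoters at this number of genes. The 35 genes were also longer, with a median of 23.5 kb against 17.4 kb, and among 7585 coding genes of the middle lengths of the 35 (12.4 to 46.2 kb) 38.8% had an ATF3 peak, 30.6% a Jun peak and 38.2% a JunD peak.

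Peaks at these genes stood higher within their lists than those of coding genes in most resting lists of C57BL/6, but not in those of Fos and JunB. Strength was given as the percentile of a peak's count among all peaks of its list, and the strongest peak of each gene was used. In ATF3 Veh its median was 80.3 over the bound genes of the 35 and 59.4 over bound coding genes. The medians were 80.5 and 57.2 for Jun, 85.2 and 54.4 for JunD, and 71.9 and 52.6 for FosL2. They were 90.9 and 68.6 for PU.1, 77.3 and 59.6 for CEBPα, and 91.3 and 63.9 for PPARγ. For Fos the median was 34.1 over 7 genes against 57.4, and for JunB 16.3 over 5 genes against 42.3. A gene with several peaks has more chances of a high one, and how far that contributed was not tested.

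**Figure D2:**
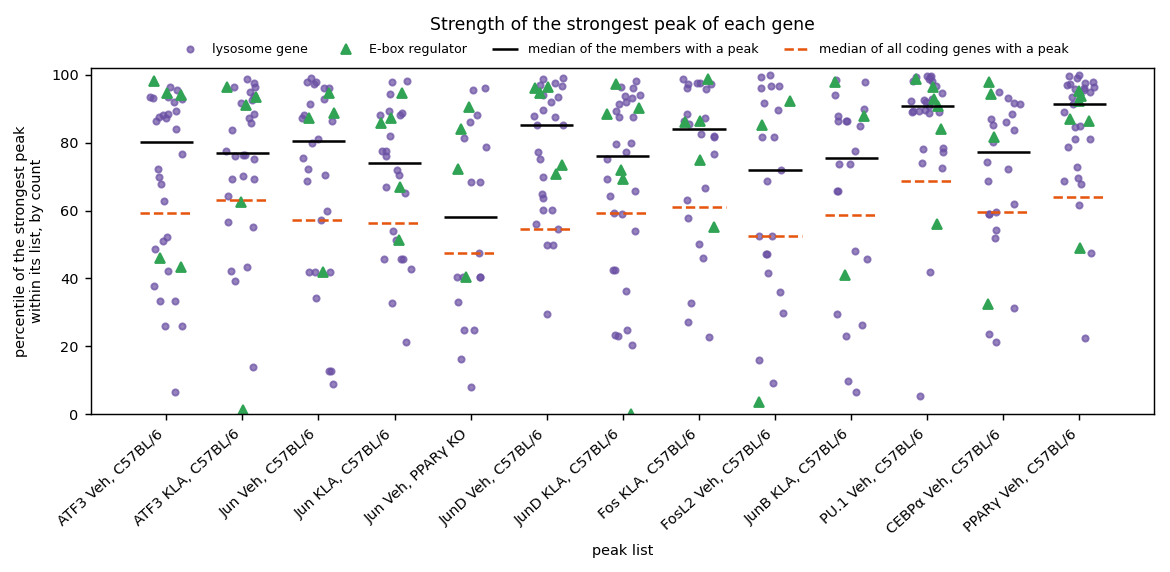
Percentile of the strongest peak (vertical axis) of each bound gene of the 35 in selected lists, one symbol per gene (circles for lysosome genes, triangles for regulators), with solid lines for the median of the 35 and dashed lines for that of bound protein-coding genes. The median of the 35 genes lies above that of coding genes in the lists shown, for example at 80.3 against 59.4 in ATF3 Veh.

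Across all lists the 35 genes had a peak in a median of 25 lists (range 6 to 28), and coding genes in a median of 6. A peak in 25 or more lists was found for 18 genes (51.4%) and for 7.70% of coding genes, while 32.0% of coding genes had no peak in any list. There were 3166 peaks at the 35 genes, of which 748 were promoter peaks and 2418 distal, and 72.1% of the distal peaks lay in introns. These peaks formed 464 loci, 83 at promoters and 381 distal. Of the promoter peaks 12.4% also lay within 1 kb of the TSS of another gene, as for Ctsa with Neurl2, Atp6v1a with Naa50, Gla with Hnrnph2, Glb1 with Tmppe and Npc2 with Isca2, and to which gene of such a pair a peak belongs cannot be told apart. Of 63 further lysosome genes, 47 (74.6%) had an ATF3 peak, 40 a Jun peak, 48 a JunD peak, 59 a PU.1 peak and 56 a PPARγ peak in Veh.

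The genes for the E-box factors differed strongly in how they were bound. Tfeb had a peak in 27 lists, at promoters and at distal sites in each of them. The strongest was at percentile 98.7 of JunD Veh in BALB/cJ, and its median over lists was 91.3. The locus found in the most lists (26) was chr17:47768699-47769015, in an intron and within 1 kb of a TSS, and it held a TRE. Tfeb was thus bound by every factor profiled, the FosL2 peaks in Veh reaching percentile 92.4 and the CEBPα peaks in Veh 97.8.

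Tfec and Mitf were bound mostly in introns. Tfec had distal peaks in 26 lists and promoter peaks in 14, with ATF3 Veh at percentile 98.1, and its most shared locus (25 lists) lay 6363 bp from the TSS. Mitf had 51 loci, the most of the 35 genes, and distal peaks in 27 lists but promoter peaks in only 8. The Mitf TRE printed above lies in a locus of 27 lists, 11224 bp into the gene. Its strongest peak was that of Fos after KLA in BALB/cJ, at percentile 99.3.

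Tfe3, Usf1 and Usf2 stood apart from these. Tfe3 was bound mainly at its promoter (22 lists), at chrX:7762543-7762930, a locus with a TRE. Usf1 had peaks in only 6 lists, all at its promoter, and they were high for PU.1 (percentile 92.9 in Veh, 85.4 after KLA) and PPARγ (86.9) but at percentile 1.1 for ATF3 after KLA, 0.2 for JunD after KLA and 9.5 for JunD Veh in BALB/cJ. Usf2 was bound in 18 lists, mostly at an intronic locus 2628 bp from a TSS where PU.1 reached percentile 98.7 in Veh and 99.4 after KLA.

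Among the lysosome genes, 8 had a peak in 27 or more lists. Hexa, the alpha subunit of beta-hexosaminidase, had a peak in 28 lists with a median percentile of 91.7, and its PU.1 peaks reached 99.6 in Veh and 99.9 after KLA. Npc2 and Npc1, which move cholesterol out of the lysosome, were bound in 28 and 27 lists with medians of 88.8 and 93.6. Atp6v1a, a catalytic V-ATPase subunit, had the highest median of the 8, 95.5 over 27 lists, and Atp6v0d2 had 87.2. Neu1, a sialidase, had a median of 82.0 and Psap, the precursor of the saposins, 71.5, both in 27 lists. Psap was therefore bound as widely as Npc1 but by weaker peaks.

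Lipa encodes the lysosomal acid lipase, which hydrolyses cholesteryl esters and triglycerides. Its PPARγ peak at chr19:34515803-34516008, in an intron, ranked 2 of all PPARγ peaks by count. In the lists of C57BL/6 its strongest peak stood at percentile 83.9 for ATF3, 92.8 for Jun, 93.5 for JunD, 99.3 for PU.1 and 68.6 for CEBPα in Veh. Ctsb, a cysteine protease, had the next highest rank of a peak at these genes, with the FosL2 Veh peak at chr14:63132293-63132738 ranking 5 in its list. At the other end, Glb1 (beta-galactosidase) had peaks in 8 lists, none above percentile 45.0, and Mcoln1 had peaks in 9 lists with a PPARγ peak at 72.9. Lamp2 was the gene without a promoter locus, although distal peaks were found there in 23 lists.

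The E-box was more frequent at bound promoters of these genes than at bound promoters at large. It was searched as CACGTG, its own reverse complement, in the central 200 bp of each locus. It was found in 12 of 83 promoter loci (14.5%, 8.47 to 23.6), against 7.27% of 16932 promoter loci of coding genes, and TCACGTGA in 7 (8.43%, 4.15 to 16.4) against 1.21%. In distal loci it was found in 15 of 381 (3.94%, 2.40 to 6.39) against 4.05%. So the E-box was over its background at promoters and at its background at distal sites. Every TCACGTGA also counts as a CACGTG.

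By gene, an E-box lay in a promoter locus of 11 of the 34 genes with such a locus (32.4%), against 12.0% of 11122 coding genes with one. The 11 genes were Ctsa, Ctsb, Ctsd, Gaa, Gla, Glb1, Lamp1, Cd63, Mcoln1, Atp6v0d1 and Atp6v1h, and none of the 6 regulator genes was among them. In 9 of the 12 loci an E-box lay within 50 bp of the centre (median 35 bp, range 0 to 87), and 11 of the 12 loci were centred within 150 bp of a TSS. Only the central 200 bp were searched, which bounds these distances, and the nearest E-box was taken where a locus held several. Neither count was taken over coding genes, so whether they are particular to the 35 genes was not tested. The Lamp1 locus held 6 E-boxes. In RefSeq promoters (GRCm38.p6, a short window around the start of each gene), which were given for 29 of the 35 genes and were searched whether bound or not, 10 held an E-box (34.5%, 19.9 to 52.7) against 9.18% of 16522 coding genes, and 6 held TCACGTGA (20.7%, 9.85 to 38.4) against 1.45%.

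The AP-1 elements showed another distribution. The TRE (TGACTCA, or TGAGTCA on the other strand) was found in 13 of 83 promoter loci (15.7%, 9.39 to 25.0) against 8.10% of those of coding genes. The CRE, searched as TGACGTCA with either C or G at each of the central bases, was found in 2 (2.41%) against 4.96%. In distal loci the TRE was found in 56 of 381 (14.7%, 11.5 to 18.6), under the 19.7% of 49233 distal loci of coding genes, and the PU.1 element ACTTCCT in 68 (17.8%, 14.3 to 22.0), under 25.0%. Over distal loci of any factor these elements were thus less frequent at the 35 genes than at large. In distal AP-1 loci the TRE had 15.7% (12.2 to 20.0) against 25.6%, and ACTTCCT 17.5% (13.8 to 22.0) against 20.5%. In those of 10 or more lists the TRE had 23.3% (15.8 to 33.1) against 33.0%, and ACTTCCT 22.2% (14.9 to 31.8) against 24.8%. Both of these last coding shares lay inside the intervals, as did that of ACTTCCT in all distal AP-1 loci. A promoter locus with a TRE or CRE was found at 11 genes (32.4%) against 19.0%, namely Tfeb, Tfe3, Gaa, Glb1, Gusb, Hexa, Cd63, Gpnmb, Psap, Atp6v0d2 and Atp6v1a, of which Gaa, Glb1 and Cd63 also had an E-box.

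Promoter loci with an E-box and without a TRE or CRE were bound by ATF3, Jun, JunD and PPARγ more than by FosL2 or JunB, with different numbers of lists per factor. Of 10 such loci at the 35 genes, 9 (interval 59.6 to 98.2%) had an ATF3 peak in at least 1 list, 8 a Jun peak, 10 a JunD peak and 8 a PPARγ peak. Only 3 (30.0%, 10.8 to 60.3) had a FosL2 peak and 3 a JunB peak. Of 13 loci with a TRE or CRE and no E-box, 12 had ATF3, 9 had Jun, 12 had JunD, 10 (76.9%, 49.7 to 91.8) had FosL2 and 9 (69.2%) had JunB. The intervals for FosL2 overlap between the classes. Of the 58 loci with neither element, 74.1% had JunD, 53.4% ATF3, 46.6% PPARγ and 34.5% Jun. FosL2 was found at 20.7% of them and JunB at 19.0%, so the lower shares of FosL2 and JunB were not particular to the E-box class. Over coding genes ATF3 was found at 61.9% of E-box loci and 81.3% of TRE or CRE loci, Jun at 32.5% and 53.7%, FosL2 at 10.1% and 26.8%, and JunB at 12.1% and 37.2%. Promoter loci of the 35 genes with either element had peaks in more lists, with medians of 11.5 lists for the E-box, 20.0 for a TRE or CRE and 4.0 for neither. The order was the same over the promoter loci of coding genes, with medians of 5.0, 8.0 and 3.0.

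**Figure D3:**
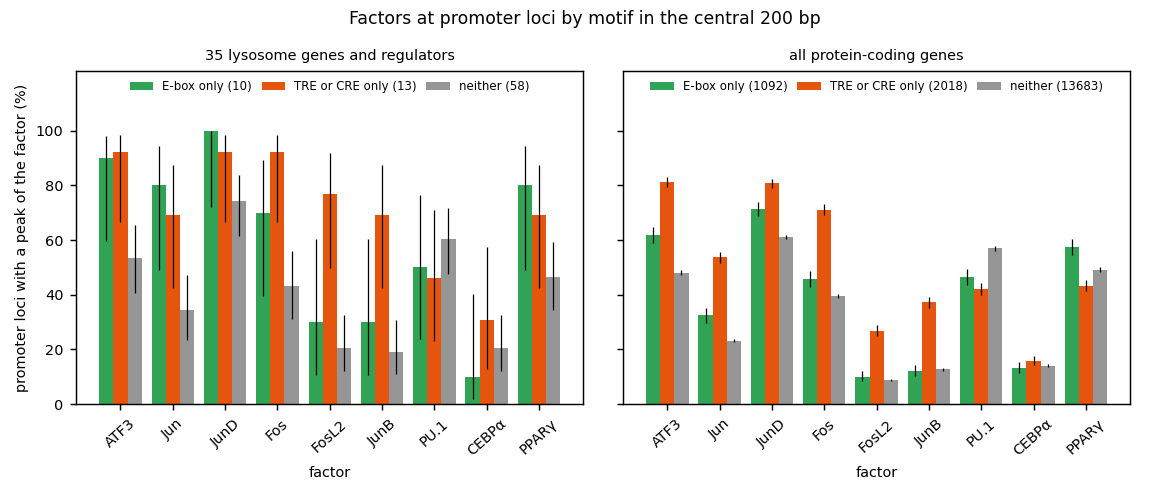
Share of promoter loci with a peak of each factor in any list (vertical axis, percent) for loci with an E-box only, with a TRE or CRE only and with neither, at the 35 genes (left) and at all coding genes (right). Whiskers are 95% Wilson intervals, and the 2 loci of the 35 genes with both elements are left out. FosL2 and JunB stand at 30.0% for the E-box class at the 35 genes and at 76.9% and 69.2% for the TRE or CRE class.

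After KLA, Fos and JunB had peaks at many more of these genes, as at coding genes. Fos went from 7 to 28 of the 35 genes (80.0%), where 31.9% of coding genes had a Fos peak after KLA. It had a promoter peak at 18 genes (51.4%, 35.6 to 67.0) against 12.0%. JunB went from 5 to 24 genes against 20.3% of coding genes, with a promoter peak at 10 against 5.42%. All 7 genes bound by Fos and all 5 bound by JunB in Veh were bound after KLA too, and the 21 further Fos genes included Ctsb, Ctsd, Gpnmb and Mitf. Of coding genes bound in Veh, 72.2% for Fos and 83.3% for JunB were bound after KLA.

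The other factors changed less in their number of genes. After KLA ATF3 had a peak at 32 genes against 42.1% and a promoter peak at 26 against 20.1%. Jun had a peak at 28 genes against 27.0% and a promoter peak at 16 against 11.4%. JunD had a peak at 34 genes against 39.6% and a promoter peak at 28 against 19.8%. FosL2 had a peak at 25 genes against 18.6% and a promoter peak at 14 against 5.29%. PU.1 had a peak at 32 genes against 52.0% and a promoter peak at 26 against 30.8%, and CEBPα a peak at 25 against 25.9% and a promoter peak at 9 against 8.42%. JunD thus gained and Jun lost promoter genes in C57BL/6.

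Jun promoter peaks were among those that turned over: of 26 in Veh 13 overlapped one after KLA, and of 19 FosL2 promoter peaks 7 did. At coding genes 47.4% of Jun and 32.2% of FosL2 promoter peaks did, so the turnover was near that of coding genes. Of the 21 genes with a Jun promoter peak in Veh, 12 kept one after KLA, 9 lost it (Lipa, Gaa, Gla, Glb1, Lamp1, Npc1, Gpnmb, Grn and Atp6v0d1), and 4 other genes gained one (Ctsa, Ctsl, Ctsz and Hexa). The share of genes that kept one was 57.1% among the 35 and 53.1% among coding genes. Of genes without one in Veh, 28.6% among the 35 and 6.03% among coding genes gained one. Of the 13 Jun promoter peaks lost, 5 (38.5%) held an E-box and 3 a TRE or CRE, and of the 13 kept 2 held an E-box and 6 a TRE or CRE. Over coding genes an E-box lay in 12.7% of lost and 9.22% of kept Jun promoter peaks, and a TRE or CRE in 15.4% and 37.7%. The direction was the same at the 35 genes and at coding genes, with few peaks at the former. The other lists shared it only in part at the 35 genes. An E-box lay in 7 of 25 kept and 1 of 7 lost ATF3 promoter peaks and in 6 of 23 kept and 1 of 9 lost JunD promoter peaks of C57BL/6. A TRE or CRE lay in 9 of 25 kept and 2 of 7 lost of these ATF3 peaks. For JunD it lay in 10 of 23 kept and 0 of 9 lost. For Jun in BALB/cJ an E-box lay in 5 of 10 kept and 0 of 3 lost, and a TRE or CRE in 4 of 10 kept and 2 of 3 lost. For ATF3 in BALB/cJ an E-box lay in 6 of 21 kept and 0 of 3 lost, and a TRE or CRE in 10 and 0. For JunD in BALB/cJ an E-box lay in 5 of 26 kept and 4 of 16 lost, and a TRE or CRE in 10 and 1. Over coding genes a TRE or CRE was more frequent in kept than in lost promoter peaks in each of these lists. In C57BL/6, JunD promoter peaks were gained at Gla, Glb1, Neu1, Atp6v0d1, Tfec, Mitf, Usf1, Ctsh and Scarb2 and lost at Ctsl, Lamp1 and Npc2. The share of genes that kept one was 86.4% among the 35 and 71.2% among coding genes. Of genes without one in Veh, 69.2% among the 35 and 9.07% among coding genes gained one. The JunD list held 19653 peaks in Veh and 31640 after KLA, and the part of list length was not tested.

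Site by site, 84.3% (76.6 to 89.9) of the ATF3 Veh peaks at the 35 genes overlapped an ATF3 KLA peak, and 80.0% did at coding genes. The shares were 59.8% (49.6 to 69.2) and 55.8% for Jun, 71.3% (63.0 to 78.4) and 76.2% for JunD, and 79.1% and 74.2% for PU.1. For CEBPα they were 80.6% (69.6 to 88.3) and 68.9%, and for FosL2 36.6% (26.4 to 48.2) and 46.0%. CEBPα sites were kept above the share of coding genes and the other shares of coding genes lay inside the intervals. A longer KLA list gives more chances of an overlap: with both lists reduced to the same number of strongest peaks, 72.2% of ATF3 and 57.4% of JunD peaks were found again. Shares at equal length were not taken over coding genes, so how the 35 genes compare there is not known.

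**Figure D4:**
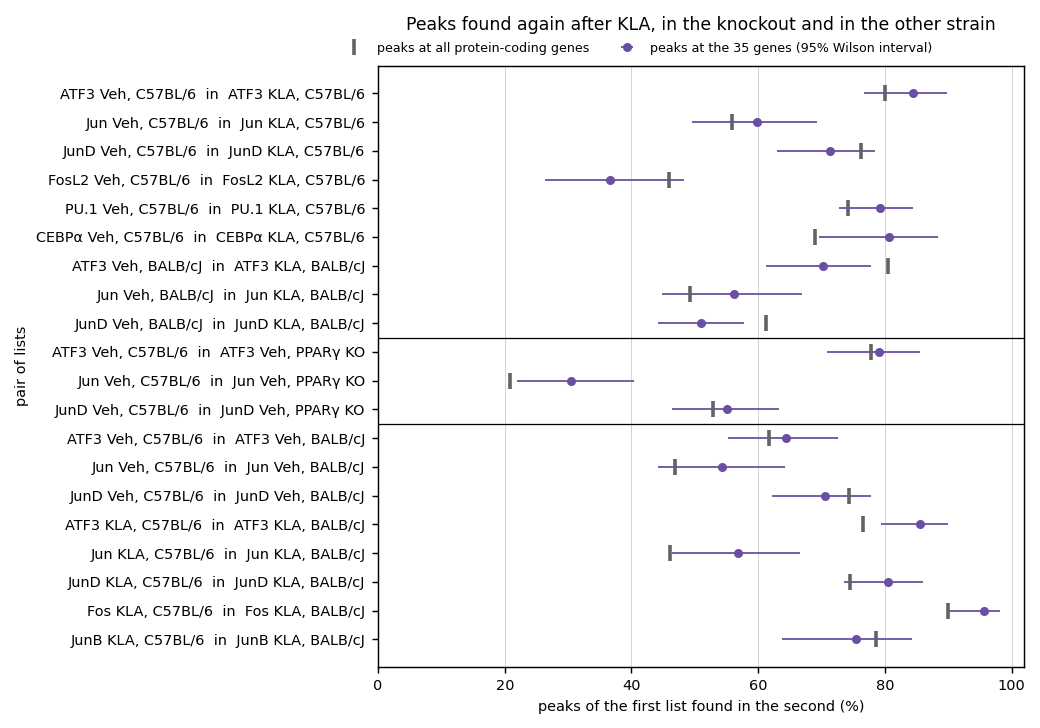
Share of the peaks of one list that overlapped a peak of another (horizontal axis, percent) at the 35 genes, with 95% Wilson intervals, and at all coding genes, for the comparisons of treatment, genotype and strain. The Jun peaks of wild-type cells in the knockout have the lowest share of the genotype comparisons, at 30.4%.

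Mitf gained the most sites with KLA. Its distal ATF3 peaks went from 11 to 24 in C57BL/6 and from 8 to 30 in BALB/cJ, and its distal JunD peaks from 10 to 22 and from 13 to 24. Its distal Fos peaks after KLA numbered 18 in C57BL/6 and 28 in BALB/cJ. At Tfeb the ATF3 peaks numbered 7 in Veh and 8 after KLA in C57BL/6, and the strongest went from percentile 94.6 to 91.1. The Jun peaks at Tfeb went from 7 to 4 and the JunD peaks from 9 to 11 in C57BL/6, and its ATF3 peaks went from 7 to 12 in BALB/cJ. Mitf is the longer gene (214298 bp against 55390 bp), and the parts of gene length and of the longer KLA lists of ATF3 and JunD in these counts were not tested.

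The lists of BALB/cJ showed the same broad binding. In Veh ATF3 had a peak at 31 genes against 32.0% of coding genes and a promoter peak at 19 against 12.9%. Jun had a peak at 30 genes against 20.3% and a promoter peak at 11 against 6.03%. JunD had a peak at 34 genes against 41.7% and a promoter peak at 27 against 22.3%. In resting BALB/cJ cells JunD had a promoter peak at more of the 35 genes than ATF3 or Jun, as 27 against 19 and 11. The order was the same among coding genes and in list length, with 28652 peaks for JunD, 19506 for ATF3 and 10957 for Jun. The part of list length was not tested.

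After KLA all 5 monomers were present in BALB/cJ. ATF3 had a peak at 34 genes against 46.1% and a promoter peak at 31 against 24.8%. Jun had a peak at 32 genes against 22.6% and a promoter peak at 18 against 9.16%, and JunD a peak at 34 against 45.7% and a promoter peak at 28 against 26.9%. Fos had a peak at 33 genes against 46.3% and a promoter peak at 29 against 26.7%, and JunB a peak at 28 against 28.4% and a promoter peak at 12 against 9.65%. The promoter peaks of ATF3 thus rose from 19 to 31 genes in BALB/cJ, while they stayed at 26 in C57BL/6.

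Jun promoter peaks went the opposite way in the 2 strains. Among coding genes the share with one was 11.4% in both treatments of C57BL/6 and rose from 6.03% to 9.16% in BALB/cJ. In BALB/cJ 9 genes had one in both treatments, 2 (Psap and Atp6v0d2) lost it and 9 gained it (Usf2, Ctsb, Ctsc, Ctsh, Gaa, Glb1, Scarb2, Atp6v0d1 and Atp6v1a). Gaa, Glb1 and Atp6v0d1 are 3 genes that lost theirs in C57BL/6. Whether the strains differ beyond the spread between experiments cannot be tested with 1 list per condition.

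In BALB/cJ the strongest Jun peak of a gene stood lower within its list after KLA at 23 of 29 genes bound in both treatments. The median change was -10.7 percentile points over the 29 genes and -0.57 over coding genes. Scarb2 went from percentile 52.0 to 3.8 and Atp6v0d2 from 95.6 to 59.0, whereas Tfe3 went from 67.1 to 84.0. JunD stood lower at 25 of 33 genes, with a median change of -3.29 over the 33 and 0.02 over coding genes. Of the JunD Veh peaks at the 35 genes 51.0% (44.2 to 57.8) were found after KLA, against 61.2% at coding genes, and of the ATF3 Veh peaks 70.2% (61.2 to 77.8) against 80.5%. Both shares of coding genes lay above the intervals.

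Between the strains the share of sites found again differed with the factor and the direction of the comparison. Of the C57BL/6 peaks at the 35 genes, 64.3% of ATF3, 54.3% of Jun and 70.5% of JunD in Veh were found in BALB/cJ, against 61.7%, 46.9% and 74.3% at coding genes. After KLA the shares were 85.5% for ATF3, with a lower bound of 79.4%, 56.8% for Jun, 80.5% for JunD, 95.6% for Fos and 75.4% for JunB. At coding genes they were 76.6% for ATF3, 46.1% for Jun, 74.5% for JunD and 78.6% for JunB. The coding share of ATF3 lay below the interval of the 35 genes, as did those of Jun (lower bound 46.4%) and Fos (lower bound 90.1%) by a small margin, and the BALB/cJ lists of Fos and JunB were longer than those of C57BL/6. In the other direction 64.9% (55.8 to 73.1) of the ATF3 Veh peaks of BALB/cJ were found in C57BL/6, below the 73.8% of coding genes. The shares were 44.1% against 50.5% for JunD Veh, 44.5% against 47.1% for JunB after KLA and 57.9% against 51.6% for Fos after KLA. Tfe3 and Usf2 were regulator genes that differed in some lists. Tfe3 in JunD Veh stood at percentile 70.9 in C57BL/6 and 95.6 in BALB/cJ, and after KLA it had no ATF3 peak in C57BL/6 and one at 93.2 in BALB/cJ. The Usf2 peak of Jun after KLA stood at percentile 67.0 in C57BL/6 and 25.3 in BALB/cJ.

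**Figure D5:**
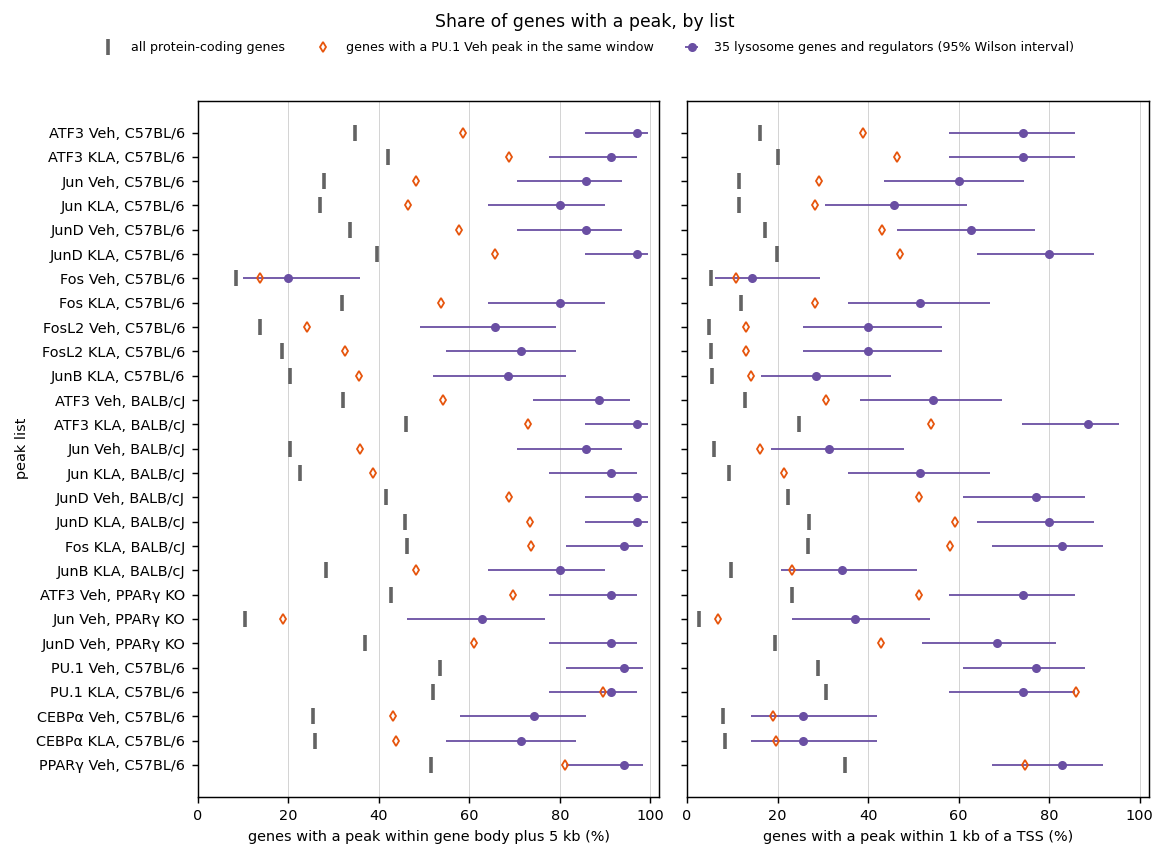
Share of the 35 genes with a peak (points, with 95% Wilson intervals, horizontal axis in percent) in each list, beside the share of all protein-coding genes (bars) and of genes with a PU.1 peak in Veh (diamonds, left out for the PU.1 Veh list), for any peak (left) and promoter peaks (right). The points of the 35 genes lie to the right of the share of coding genes in the lists shown.

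In resting PPARγ knockout TGEMs the 3 monomers differed. ATF3 had a peak at 32 genes against 42.7% of coding genes and a promoter peak at 26 against 23.1%, and JunD a peak at 32 against 36.9% and a promoter peak at 24 against 19.4%. Jun had a peak at 22 genes (62.9%, 46.3 to 76.8) against 10.4% and a promoter peak at 13 (37.1%, 23.2 to 53.7) against 2.59%. The Jun list of the knockout held 4290 peaks and that of the wild type 15548, and the share of coding genes with a Jun peak was lower as well. Jun peaks were absent in the knockout at 10 genes that had one in the wild type. These were Ctsc, Ctss, Ctsz, Gaa, Gla, Glb1, Lamp2, Grn, Atp6v0d1 and Atp6v1h. Jun peaks were present in the knockout at 2 genes that had none in the wild type (Ctsa and Mcoln1). Of the lysosome and regulator genes with a wild-type Jun peak, 66.7% kept one in the knockout, against 34.3% of coding genes. The bound lysosome and regulator genes had a median of 3 wild-type Jun peaks each, and bound coding genes a median of 1. With more peaks a gene has more chances of keeping one, and how far that contributed to the gene shares was not tested.

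Of the wild-type Jun peaks at the 35 genes 30.4% (22.0 to 40.5) were found in the knockout, against 20.9% at coding genes. With both lists reduced to equal length, only the wild-type list was cut, to its strongest 4290 peaks, and the share at the 35 genes was 55.6%. This cut moved the value by more than 1.5 times. The parts of list length and of peak strength in it were not tested. No share at equal length was taken over coding genes. ATF3 peaks were found again at 79.1% (70.8 to 85.6) against 77.7%, and JunD peaks at 55.0% (46.4 to 63.4) against 52.9%. The strongest Jun peak stood lower in the knockout at 18 of the 20 genes bound in both. Npc2 went from percentile 79.9 to 16.4, Ctsd from 86.5 to 24.8 and Atp6v1a from 98.9 to 40.6, while Cd63 went from 88.1 to 96.0. Coding genes moved the same way, with a median change of -18.8 and -16.8 at the 35.

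Wild-type peaks that overlapped a PPARγ peak were kept more often than the others. At the 35 genes 26 of 65 Jun peaks with PPARγ were found in the knockout (40.0%, 29 to 52.1) and 2 of 27 without it (7.41%, 2.06 to 23.4). For ATF3 the shares were 88.3% (79.3 to 93.7) with PPARγ and 60.5% (44.7 to 74.4) without, and for JunD 67.4% (57 to 76.4) and 30.2% (18.6 to 45.1). The order was the same at coding genes, with 27.1% and 8.44% for Jun, 84.5% and 67.1% for ATF3, and 60.3% and 35.4% for JunD. Sites shared with PPARγ can also be the stronger ones, and the part of peak strength was not tested.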

How the data were processed

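Per the labels and the study's methods, reads were aligned by the authors to mm10 using Bowtie2 (BALB/cJ reads to a custom genome with positions shifted back), called peaks with HOMER against input, and kept peaks with an IDR under 0.05 over replicate experiments. The deposited lists give each peak a count, a whole number that was not scaled to depth, and how counts of replicates were combined is not given in the sources used here. The deposited score of a peak is the scaled IDR, from 540 at the threshold to 1000. Tool versions of the authors are not given in the sources used here.

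Conditions were taken from the labels. The depth of the libraries is unknown, and the counts of peaks limit it only loosely. Peaks were assigned to genes of GENCODE vM21 on GRCm38 by their midpoint and ranked by count within a list. Peaks of 2 lists were matched where they overlapped by at least 1 bp, and runs of overlapping peaks from any list made 1 locus each. Both strands of the central 200 bp were searched for motifs. Genes were named in the text if they were regulators, had peaks in the most lists, or were gained or lost in a comparison. The 35 genes, the lysosome gene lists, the motifs and the comparisons were chosen with earlier results of these data known. No test between conditions was run, because each condition has 1 list. Gene assignment, overlap and motif search were tested on simulated data. Alternatives changed the window around genes, the promoter distance, the peaks kept, the comparison genes, the overlap and the motif. The tools were pysam 0.24.0, pandas 2.3.3, matplotlib 3.10.9, scipy 1.17.1 and numpy 2.4.6 under Python 3.11.15.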

Additional observations from a re-analysis of the deposited data

Results flagged for a closer look

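In 3 measures the effect of KLA had opposite directions in the 2 strains, and none of these differences was tested, because each condition has 1 list. The number of the 35 genes with an ATF3 peak changed by -2 in C57BL/6 and by 3 in BALB/cJ. That with a Jun peak changed by -2 in C57BL/6 and by 2 in BALB/cJ, and that with a Jun promoter peak by -5 in C57BL/6 and by 7 in BALB/cJ. The genes behind the last were named above. In Veh, Jun had 21 promoter genes in C57BL/6 and 11 in BALB/cJ, and after KLA 16 and 18. The coding shares with a Jun promoter peak were 11.4% and 6.03% in Veh and 11.4% and 9.16% after KLA. With any Jun peak the coding share went from 27.8% to 27.0% in C57BL/6 and from 20.3% to 22.6% in BALB/cJ. With an ATF3 peak it rose in both strains, from 34.7% to 42.1% and from 32.0% to 46.1%.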

How the results depend on the processing

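Of 419 alternative values, 305 moved by less than their interval or spread, 113 moved by more and 1 reversed. The difference between the 35 genes and their comparison genes stayed above 0 in 81 of 83 values. The exceptions were distal E-boxes, -0.58 points for TCACGTG and -0.30 for TCACGTGA. The difference for distal E-boxes reversed in the central 100 bp, where it was 0.16 points. With the gene body alone 82.9% of the 35 genes had an ATF3 peak and 51.4% a CEBPα peak in Veh, and with 20 kb on each side 100% had ATF3 and 94.3% Jun. With the strongest 50% of each list 68.6% had an ATF3 and 62.9% a Jun peak, and promoter peaks fell to 37.1% for ATF3, 31.4% for Jun, 45.7% for JunD and 45.7% for PU.1, where coding genes fell to 5.88%, 4.29%, 5.65% and 14.0%. With a score of at least 830, 57.1% had an ATF3 promoter peak. Against genes with a PU.1 peak the differences in percentage points were 38.5 for ATF3, 37.6 for Jun, 27.9 for JunD, 26.2 for Fos after KLA, 31.1 for CEBPα and 13.2 for PPARγ, and at promoters against genes with a PU.1 promoter peak 35.5, 30.9, 19.8, 23.1 (Fos after KLA) and 8.18 (PPARγ). Ranking by score gave median percentiles of 67.7 for PU.1 and 67.3 for PPARγ. With lists of equal length the shares found again were 72.2% (ATF3 after KLA), 57.4% (JunD after KLA), 55.6% (Jun in the knockout) and 64.3% (Jun in BALB/cJ). These shares were taken at the 35 genes and not over coding genes. TCACGTGA was found in 8.43% of promoter loci. The comparison genes of middle length and with a PU.1 promoter peak were chosen after seeing the data. The causes of these shifts were not tested. No paired analysis was possible because each condition has 1 list with replicates combined. The number of genes, 35, limits the precision of each share, and peaks below the authors' threshold are not in the lists.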

Other observations

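Distal sites that appeared in 1 list only were more frequent at these genes than at coding genes in some lists and less frequent in others. Over all loci, promoters included, 29.1% at the 35 genes and 27.5% at coding genes were found in 1 list. In JunD Veh of BALB/cJ 28 of 153 distal loci at the 35 genes (18.3%) were found in no other list, against 5.79% at coding genes. In FosL2 Veh the numbers were 7 of 51 (13.7%) against 2.35%, and in ATF3 Veh of BALB/cJ 10 of 90 (11.1%) against 1.86%. The order was the opposite in PU.1 Veh, with 11 of 133 (8.27%) against 17.6%, in PU.1 after KLA (1.63% against 6.01%), in ATF3 of the knockout (1.10% against 4.00%) and in Fos after KLA of BALB/cJ (2.88% against 4.55%), among others. In JunD Veh of BALB/cJ these loci lay at Psap (6 loci, median percentile 15.7) and Ctsd (4 loci, 34.6) among others, so that they were weak peaks of their list, whereas the 3 such loci at Gpnmb in FosL2 Veh had a median percentile of 65.3.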
